A study of Homo sapiens with 17 samples.

Results

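The genes described here are the platelet-derived growth factor (PDGF) ligands PDGFA, PDGFB and PDGFC, the receptors PDGFRA and PDGFRB, and the surface proteins CSPG4 and MCAM, which together mark pericytes and the signalling that recruits them. All probe sets annotated to these 7 genes were taken, 21 of the 54675 on the array. They were followed in the human neuroblastoma line IMR32, in which MYCN is amplified, after doxycycline induction of NOTCH3IC, the intracellular and constitutively active part of the receptor NOTCH3. There were 2 independent clones carrying the inducible NOTCH3IC, c8 with 8 arrays at times 0, 4, 8, 12, 24, 48, 72 and 96, and c6 with 9 arrays at the same times and at 120. Each clone and time had 1 array of total RNA, and times are given as labelled, since no unit is stated. Doxycycline was added in both clones, the arrays include no culture kept without it after time 0 and no line without the construct, and each line is 1 clone, so time in culture and doxycycline cannot be told apart from NOTCH3IC.

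PDGF ligands are secreted dimers that bind receptor tyrosine kinases. PDGFA and PDGFC act mainly through PDGFRA, and PDGFB binds both receptors but is best known for PDGFRB. In blood vessels, endothelial cells release PDGFB and the pericytes that wrap the vessel carry PDGFRB, so that loss of either leaves vessels short of pericytes. CSPG4 (NG2) is a membrane proteoglycan and MCAM (CD146) a cell adhesion molecule of the immunoglobulin superfamily, and both are used to label pericytes. NOTCH3 is itself a receptor of mural cells, the class that pericytes and vascular smooth muscle cells make up.

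Of the 7 genes, PDGFA and MCAM rose after induction on their brightest single-gene probe sets. There, all late arrays lay above all early arrays in both clones, and the share of all genes so separated was not counted. The other PDGFA probe set showed no such course. Of the 6 probe sets annotated to MCAM, 1 fell and 1 did not pass the threshold. PDGFRB was higher at time 24 than at the start, in a comparison added after the values had been seen. That call was lost without either time 0 array or the time 24 array of clone c6. PDGFRA was lower late than at the start, in a call that did not hold up when single arrays were left out. PDGFB passed the threshold in 1 comparison, late against early, PDGFC passed in none between times, and CSPG4 was dim on every array. Values are deposited signals on a linear scale, where each array had been scaled to a 2% trimmed mean of 100.01, and array medians were 14.6 to 19.3. Log2 changes are of log2(signal + 16), given ± the standard error of a limma fit over both clones, with p-values adjusted by Benjamini-Hochberg over all 13675 genes tested and a threshold of 0.05. Late stands for times 48, 72 and 96, early for 4, 8 and 12, and start for time 0. The pseudocount understates the changes of dim genes. The labels do not say whether the times of a clone were separate cultures, so the spread behind a p-value may be technical, and RNA from a changing share of cells cannot be told apart from a changing amount of RNA per cell.

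The signals of NOTCH3 and of a direct Notch target were higher late after induction. NOTCH3 (probe set 203238_s_at) had 218, 275, 440.0, 780.3, 1028, 794, 703 and 836 in clone c8 over times 0 to 96, and 94.6, 75.2, 161, 205, 446, 467, 424, 393 and 453 in clone c6 over times 0 to 120. Its late change was 1.88 ± 0.19 (limma adjusted p = 1.03e-05), and that of HEY1, a repressor directly activated by Notch, was 5.53 ± 0.27. Early against start, NOTCH3 was at 0.74 ± 0.19, short of the threshold (limma adjusted p = 0.0556), and HEY1 at 5.21 ± 0.27. The sources used here do not say whether the NOTCH3 probe set detects the construct.

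Promoter windows of RefSeq (GRCh38.p14), each from 250 bases before to 50 after a start site, were at hand for 5 of the 7 genes and held 9 windows: 4 of PDGFA, 2 of PDGFRA and 1 each of PDGFRB, CSPG4 and MCAM. They were searched on both strands for GTGGGAA (the site of RBPJ, the DNA-binding partner of NOTCH3IC), for CACGTG and CACGCG (sites of the HES and HEY repressors) and for the CArG box of SRF, which drives contractile genes. The windows of PDGFA, PDGFRB and MCAM are shown, in the direction of the gene, where for PDGFA these are the windows that held a motif. Capitals mark the motif letters, written for a match on the opposite strand as they read on the printed strand.

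PDGFA chr7:519797-520096 (- strand): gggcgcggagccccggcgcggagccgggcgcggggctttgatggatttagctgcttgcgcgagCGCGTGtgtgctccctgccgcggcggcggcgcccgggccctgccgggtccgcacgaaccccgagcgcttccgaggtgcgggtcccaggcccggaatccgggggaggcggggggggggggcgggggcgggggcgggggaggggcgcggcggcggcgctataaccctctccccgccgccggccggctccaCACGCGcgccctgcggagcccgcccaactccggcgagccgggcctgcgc
PDGFA chr7:520177-520476 (- strand): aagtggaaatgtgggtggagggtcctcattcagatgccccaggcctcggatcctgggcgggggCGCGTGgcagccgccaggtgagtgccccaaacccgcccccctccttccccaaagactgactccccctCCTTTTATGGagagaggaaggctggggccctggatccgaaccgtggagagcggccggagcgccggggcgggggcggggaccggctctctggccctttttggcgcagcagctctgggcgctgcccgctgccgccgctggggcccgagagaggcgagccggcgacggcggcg
PDGFRB chr5:150155796-150156095 (- strand): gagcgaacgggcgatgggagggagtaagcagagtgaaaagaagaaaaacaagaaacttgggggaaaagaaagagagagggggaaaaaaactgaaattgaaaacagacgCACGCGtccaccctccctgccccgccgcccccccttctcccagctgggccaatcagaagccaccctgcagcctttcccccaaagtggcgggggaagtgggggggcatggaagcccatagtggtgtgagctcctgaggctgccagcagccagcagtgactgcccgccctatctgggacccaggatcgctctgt
MCAM chr11:119317081-119317380 (- strand): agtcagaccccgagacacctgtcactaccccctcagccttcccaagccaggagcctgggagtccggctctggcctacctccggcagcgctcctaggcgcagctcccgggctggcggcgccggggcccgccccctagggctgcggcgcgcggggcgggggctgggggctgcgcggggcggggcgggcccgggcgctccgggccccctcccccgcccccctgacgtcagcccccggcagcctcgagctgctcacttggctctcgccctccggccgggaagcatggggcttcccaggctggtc

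The MCAM window held none of the 4 motifs. The PDGFRB window held CACGCG at base -142 from the start site. The PDGFA window at chr7:519797-520096 held CACGCG on the opposite strand at -187 and on the printed strand at 2. That at chr7:520177-520476 held it on the opposite strand at -187, with a CArG box at -120. GTGGGAA and CACGTG were in none of the 9 windows, and the other windows of PDGFA and those of PDGFRA and CSPG4 held no motif. Of all 35116 windows of this length, 6.25% held GTGGGAA, 7.26% CACGTG, 11.4% CACGCG and 1.29% a CArG box. A match is a description of the letters and no evidence of binding.

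PDGFA, the ligand that makes PDGF-AA (chr7:497258-520700, as for all genes here in RefSeq, GRCh38.p14), rose after induction. Its brighter probe set 205463_s_at had 22.6, 14.3, 15.5, 59.6, 90.3, 109, 114 and 119 in clone c8 over times 0 to 96, and 8.5, 9.0, 17, 36.2, 34.8, 78.9, 69.8, 77.7 and 91.1 in clone c6 over times 0 to 120. In both clones the late arrays lay above all early arrays, and clone c8 was the higher at 7 of the 8 shared times. The late signal averaged 114 ± 5.0 in clone c8, against 22.6 at its start (SD, n = 3 late arrays), and 75.5 ± 4.94 in clone c6, against 8.5 at its start (SD, n = 3 late arrays). The late change from the start was 3.54-fold (log2 1.82 ± 0.18, limma adjusted p = 1.15e-05, 6 of 6 late arrays above their own start). Against the early arrays, a comparison that does not use time 0, it was 2.85-fold (log2 1.51 ± 0.21, limma adjusted p = 3e-04). Ordered by the mean of the clones, the times ran 4, 0, 8, 12, 24, 72, 48 and 96. The step from time 8 to time 12, 0.96 on the log2 scale, was the single one larger than the gap between the clones at both of its times. For such steps, here and below, the gap was taken after subtracting the mean of each clone.

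The other PDGFA probe set, 216867_s_at, stayed between 4.7 and 25.7 and showed no such course, with a late change of 0.24 ± 0.24. The rise of PDGFA rests on 1 of its 2 probe sets, and as the mean of both it was 1.03 ± 0.18 (limma adjusted p = 0.00314). The NOTCH3 signal was higher in clone c8 by 1.21 ± 0.11 over the shared times (limma adjusted p = 6.23e-06). PDGFA was also higher in clone c8, by 0.50 ± 0.11 (limma adjusted p = 0.00584), which was 0.12 ± 0.11 and not called as the mean of both probe sets, and the part of the NOTCH3 level in that difference was not tested. Of the 6 genes tested, 3 were called in level (PDGFA and PDGFC higher and PDGFRA lower in clone c8), where 21.7% of all genes were.

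**Figure D1:**
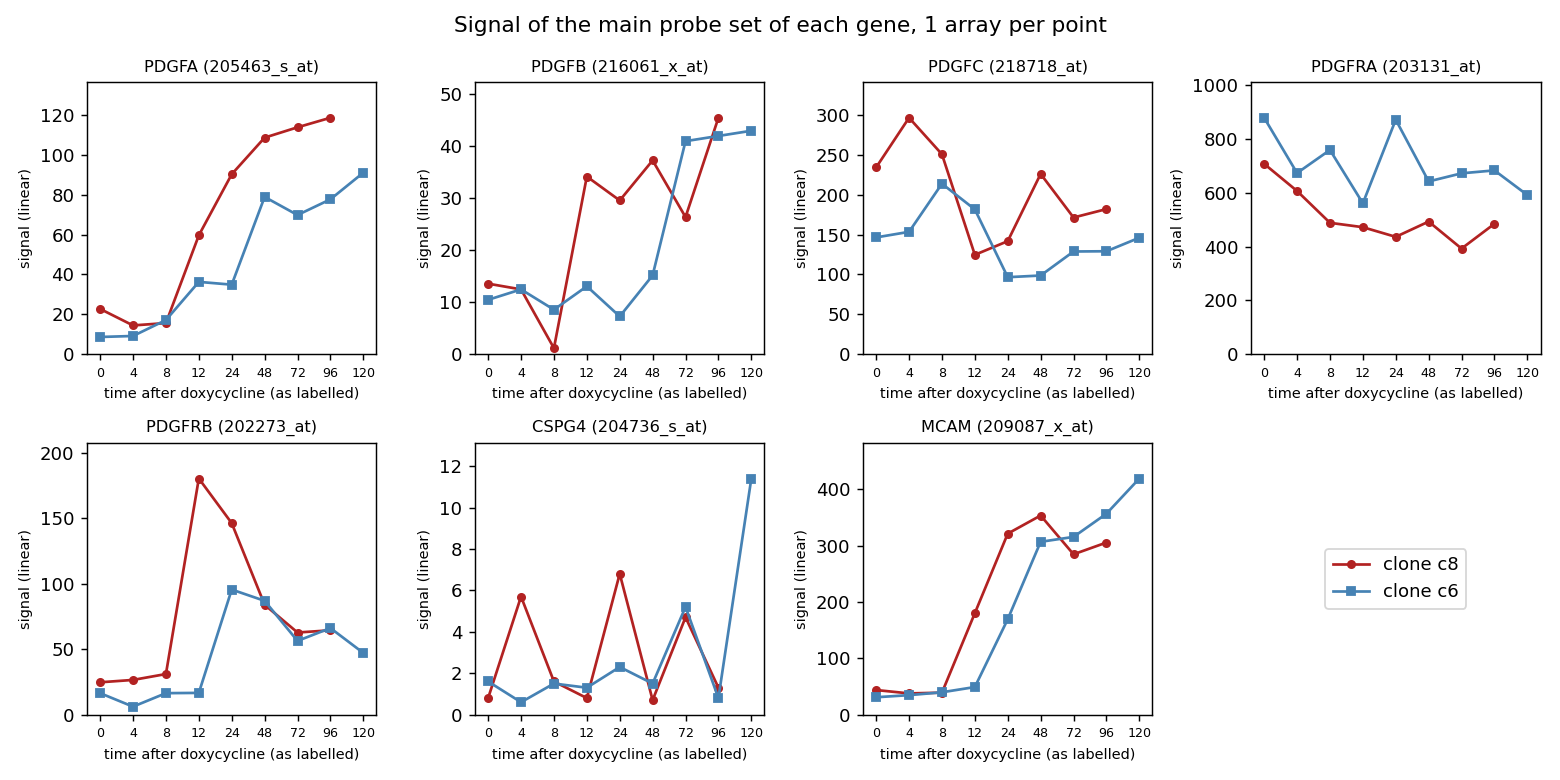
Signal (linear, y axis, from 0) of the main probe set of each of the 7 genes by time after doxycycline as labelled (x axis, evenly spaced), with 1 array per point, clone c8 in red circles and clone c6 in blue squares. PDGFA and MCAM climb to their late levels in both clones, PDGFRB peaks at 180.3 at time 12 in clone c8 and at 95.5 at time 24 in clone c6, and CSPG4 does not pass 11.4.

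PDGFB, the ligand that recruits pericytes (chr22:39223359-39244982), was dim at the start and higher late than early. Its main probe set 216061_x_at had 13.5, 12.4, 1.1, 34.1, 29.5, 37.2, 26.3 and 45.4 in clone c8 over times 0 to 96, and 10.4, 12.4, 8.5, 13.0, 7.2, 15.1, 40.9, 41.9 and 42.9 in clone c6 over times 0 to 120. Clone c8 was at 26.3 or above from time 12 and clone c6 at 40.9 or above from time 72, so late and early arrays were apart in clone c6 and overlapped in clone c8. The change was 0.81 ± 0.22 late against early, which passed the threshold (limma adjusted p = 0.0455). It was 0.82 ± 0.27 late against start, which did not (limma adjusted p = 0.0944), although 6 of 6 late arrays were above their own start. The late against early call was lost without 9 of the 12 arrays in turn (times 4, 8 and 96 of either clone, times 12 and 72 of clone c6 and time 48 of clone c8), with adjusted p up to 0.117. The other 3 PDGFB probe sets were below the intensity filter, and their highest signals were 23.8 for 204200_s_at, 14.1 for 216055_at and 15.0 for 217112_at.

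PDGFC, a ligand secreted in a latent form that proteases activate (chr4:156760454-156971799), did not pass the threshold in any comparison between times with all arrays. Probe set 218718_at had 234, 297, 251, 124, 142, 226, 171 and 182 in clone c8 over times 0 to 96, and 146, 153, 214, 182, 96.4, 98.5, 129, 129 and 146 in clone c6 over times 0 to 120. All 6 late arrays were below their own start, and the late change was -0.27 ± 0.21 (limma adjusted p = 0.564). Late against early it was -0.34 ± 0.17 (limma adjusted p = 0.344), and -0.52 ± 0.11 (limma adjusted p = 0.00531) without the time 12 array of clone c8, the lowest of that clone. The lowest mean of the clones was at time 24, at -0.60 ± 0.26 from the start (limma adjusted p = 0.187). Clone c8 was the higher by 0.45 ± 0.13 over the shared times (limma adjusted p = 0.023), a call lost without the time 0, 4 or 48 array of either clone, with adjusted p up to 0.0676. As the mean of both probe sets the difference was 0.15 ± 0.12 (limma adjusted p = 0.407), and 222719_s_at alone gave -0.15 ± 0.14. The other PDGFC probe set, 222719_s_at, lay between 2.0 and 28.8 and had 3 of 6 late arrays on either side of the start.

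PDGFRA, the receptor for PDGFA and PDGFC (chr4:54229293-54298245), was measured by 203131_at well above the array medians at every time. It had 708, 607, 488, 472, 436, 493, 392 and 485 in clone c8 over times 0 to 96, and 879.7, 674, 759.7, 561, 872, 642, 673, 684 and 592 in clone c6 over times 0 to 120. All arrays after time 0 were below their own start in both clones, and clone c8 was below clone c6 at 8 of the 8 shared times. The level of clone c8 was lower by 0.49 ± 0.09 on the log2 scale (limma adjusted p = 0.00118), the opposite direction to PDGFA and PDGFC. PDGFRA fell by 0.51 ± 0.14 late against start on the log2 scale, a 1.42-fold drop (limma adjusted p = 0.0421, 6 of 6 late arrays lower). That call was lost without 9 of the 17 arrays in turn (times 0, 8, 48 and 96 of either clone and time 72 of clone c8), with adjusted p up to 0.432 and changes between -0.61 and -0.40. It was also lost with quantile normalization and 8 other settings, and was -0.22 ± 0.11 as the mean of its probe sets. Late and early arrays overlapped in both clones, with a change of -0.09 ± 0.10 (limma adjusted p = 0.746). No step between neighbouring times in the order of levels exceeded the gaps between the clones at both of its times, with the mean of each clone subtracted.

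The other PDGFRA probe sets were dim. Probe set 215305_at lay between 13.1 and 46.0, with 6 of 6 late arrays below their own start and a late change of -0.37 ± 0.20 that did not pass the threshold. Probe sets 1554828_at and 211533_at reached 15.6 and 10.6.

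PDGFRB, the receptor that marks pericytes (chr5:150113839-150155845), rose at time 24. Its single probe set 202273_at had 24.7, 26.5, 31.0, 180.3, 146, 83.9, 62.7 and 64.4 in clone c8 over times 0 to 96, and 16.4, 6.1, 16.4, 16.6, 95.5, 86.9, 56.3, 66.1 and 47.1 in clone c6 over times 0 to 120. The highest array was time 12 in clone c8 and time 24 in clone c6, and at time 12 clone c6 was still at its starting level. At time 24 the change from the start was 3.70-fold (log2 1.89 ± 0.44, limma adjusted p = 0.0166). This comparison was added after the values had been seen, and without either time 0 array or the time 24 array of clone c6 its adjusted p was up to 0.142.

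Late, PDGFRB averaged 70.3 ± 11.8 in clone c8 (SD, n = 3 arrays), against 24.7 at its start, and 69.8 ± 15.6 in clone c6 (SD, n = 3 arrays), against 16.4 at its start. The late change was 1.23 ± 0.36 (limma adjusted p = 0.055), short of the threshold, with 6 of 6 late arrays above their own start. In a fit of clone c6 alone the late change was 1.39. Without the time 12 array of either clone it stayed at 1.23, while its standard error fell to 0.19. The gap between the clones at time 12 had then left the fit. The late change passed the threshold in these fits, and without the time 48 or 96 array of clone c8. Late against early the change was 0.90 ± 0.33 (limma adjusted p = 0.16), and 1.29 ± 0.16 (limma adjusted p = 2.83e-05) without the time 12 array of clone c8. From time 24 to the late arrays the change was -0.66 ± 0.36 (unadjusted p = 0.0906, limma adjusted p = 0.616), which did not pass the threshold. In the order of mean levels, the step up from time 8 to the next level, that of time 72, was the single one beyond the gap between the clones at both times, 0.95 on the log2 scale.

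CSPG4, the NG2 proteoglycan (chr15:75674322-75713466), was dim on every array. Probe set 204736_s_at had 0.8, 5.7, 1.6, 0.8, 6.8, 0.7, 4.7 and 1.3 in clone c8 over times 0 to 96, and 1.6, 0.6, 1.5, 1.3, 2.3, 1.5, 5.2, 0.8 and 11.4 in clone c6 over times 0 to 120, and 214297_at lay between 0.3 and 6.9. Both are below the median of every array and below the intensity filter, so CSPG4 was not among the 13675 genes tested. Over all probe sets without a filter, the late changes were 0.09 ± 0.11 and -0.18 ± 0.12, and neither passed the threshold. Signals this low do not show that the gene is off.

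MCAM (chr11:119308529-119317130) had the largest late against start change of the 6 genes tested. Its single-gene probe set 209087_x_at had 43.7, 37.7, 39.0, 180.2, 321, 354, 285 and 306 in clone c8 over times 0 to 96, and 30.9, 34.6, 39.7, 49.0, 169, 307, 316, 357 and 419 in clone c6 over times 0 to 120. Clone c8 was at 180.2 or above from time 12 and clone c6 at 169 or above from time 24, and in both the late arrays lay above all early arrays. The late signal was 315 ± 35.3 in clone c8, against 43.7 at its start (SD, n = 3 late arrays), and 326 ± 26.7 in clone c6, against 30.9 at its start (SD, n = 3 late arrays). The late change from the start was 6.34-fold (log2 2.66 ± 0.26, limma adjusted p = 1.01e-05, 6 of 6 late arrays higher), and from the early arrays 4.88-fold (log2 2.29 ± 0.25, limma adjusted p = 2.52e-05). As the mean of the 2 probe sets annotated to MCAM alone it was 1.19 ± 0.20 late against start (limma adjusted p = 0.00269). By time 24 the change of 209087_x_at was already 2.24 ± 0.32 (limma adjusted p = 0.000592). In the order of mean levels no step exceeded the gaps between the clones at both of its times, since the clones were far apart at times 12 and 24.

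The 6 probe sets annotated to MCAM did not move alike. In the fit over all 54675 probe sets, 4 rose late against start, 1 fell and 1 did not pass. The risers were 209087_x_at at 2.66 ± 0.27, 209086_x_at at 2.06 ± 0.30, 210869_s_at at 3.47 ± 0.34 and 211340_s_at at 2.98 ± 0.25, with the highest limma adjusted p at 0.00148. Their log2 values correlated with each other at r between 0.94 and 0.99 over the 17 arrays, which share the time course. Probe set 211042_x_at fell by 0.49 ± 0.11 (limma adjusted p = 0.0279), with a late mean of 1249 in clone c8, against 1884 at its start, and 1404 in clone c6, against 1835 at its start. Its r with the risers was between -0.53 and -0.39. The sixth, 1568191_at, lay between 1.8 and 23.7. The annotation lists the microRNA gene MIR6756 beside MCAM for 209086_x_at, 210869_s_at, 211042_x_at and 211340_s_at, so these were left out of the gene test, and the suffix _x_at marks probes that may match other transcripts.

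**Figure D2:**
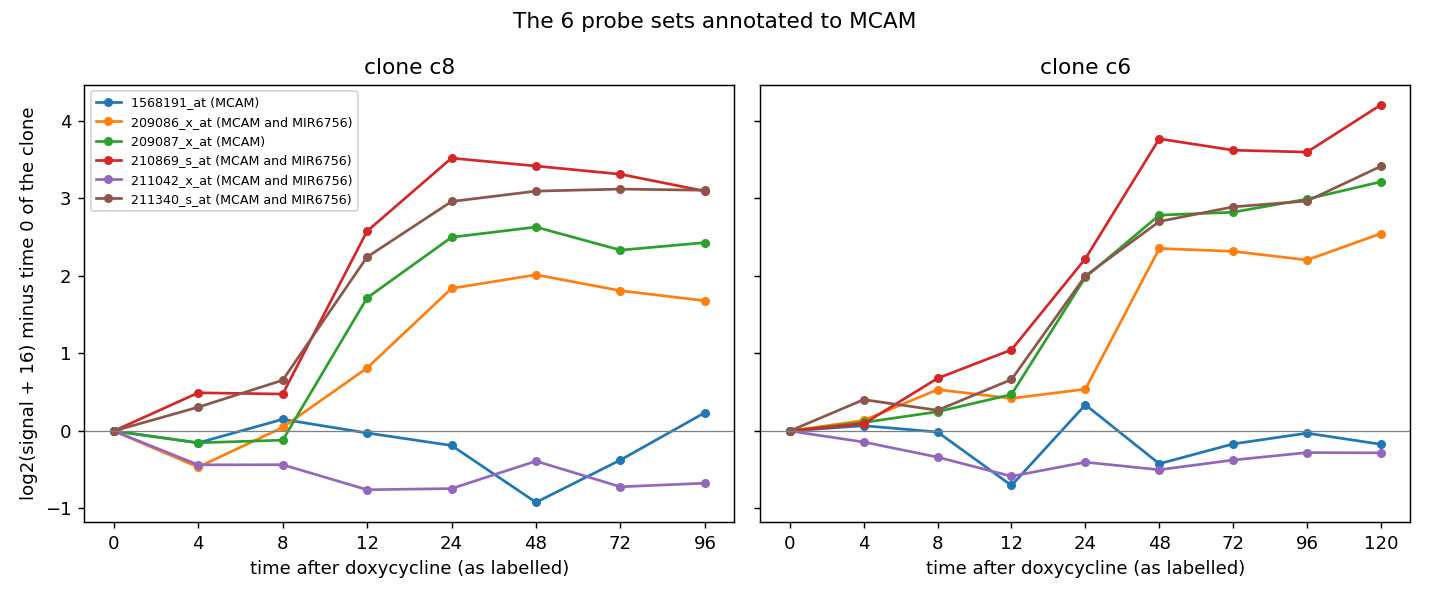
Change of log2(signal + 16) from time 0 of the same clone (y axis) for the 6 probe sets annotated to MCAM, by time after doxycycline as labelled (x axis, evenly spaced), clone c8 left and clone c6 right, 1 array per point. Probe sets 209086_x_at, 209087_x_at, 210869_s_at and 211340_s_at climb in both clones, while 211042_x_at stays below 0 at every later time.

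Set against all genes, the 6 tested were called as follows. Change over time passed for 3 (PDGFA, MCAM and PDGFRB), where 6.61% of all genes did. That of PDGFRB (limma adjusted p = 0.0432) was lost under 8 of the 9 other settings fitted, all but a pseudocount of 1, and without 12 of the 17 arrays in turn; it was kept without the time 12 or 120 array of clone c6 or the time 12, 48 or 96 array of clone c8. Late against start, 2 rose (PDGFA and MCAM) and 1 fell (PDGFRA), where 5.21% of all genes rose and 1.73% fell. Their median change was 1.03, against 0.02 over all genes. Early against start, 0 of 6 passed with limma and 1 did at an unadjusted p under 0.05 (PDGFRA, -0.42 ± 0.14), where 1.29% of all genes rose and 0.724% fell. Unadjusted, 1951 of all 13675 genes passed. At time 24, 3 rose (PDGFA, MCAM and PDGFRB), where 5.76% of all genes rose and 2.42% fell. The rise of PDGFA at time 24, 1.26 ± 0.22, was 0.65 ± 0.22 as the mean of both probe sets (limma adjusted p = 0.094) and was also not called in clone c6 alone (limma adjusted p = 0.212), in clone c8 alone, with phase means or without the clone term. Late against early, 3 rose (PDGFA, PDGFB and MCAM), where 3.77% rose and 1.41% fell. Late against time 24, 0 of 6 passed with limma and 2 did unadjusted, where 0.205% rose and 0.0293% fell and 1246 of all 13675 passed unadjusted. Over all probe sets, 5 of the 21 rose and 1 fell late against start, where 1.66% rose and 0.472% fell. The risers other than 205463_s_at of PDGFA, and the 1 that fell, are all annotated to MCAM. They are repeat readings under 1 gene name and not independent members. The comparisons with the start share its 2 arrays, and 6 genes are few for such shares.

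**Figure D3:**
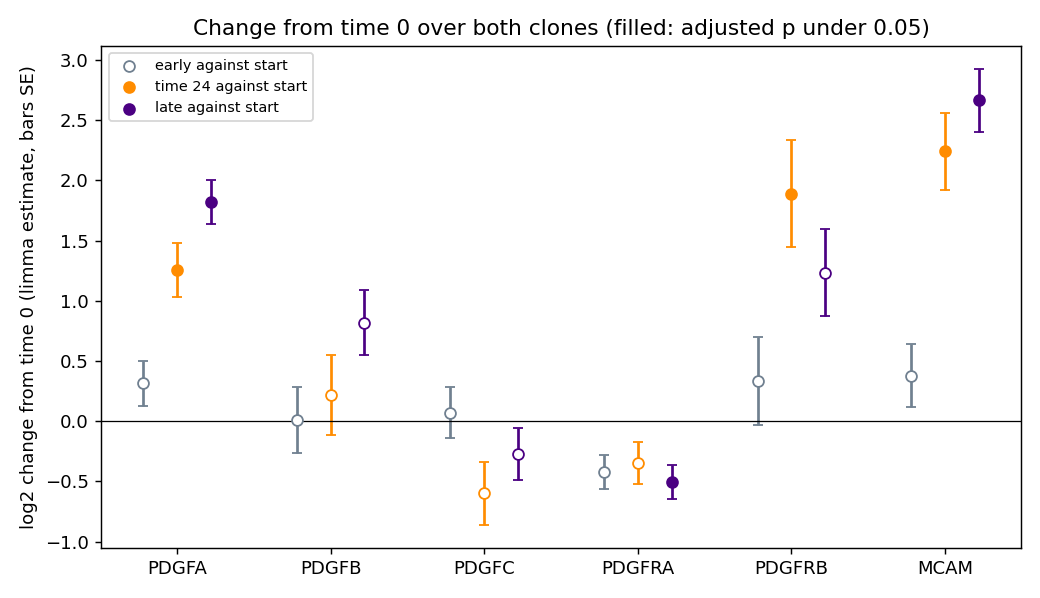
Log2 change from time 0 over both clones (y axis, limma estimate, bars ± SE) for the 6 genes tested (x axis), for the early arrays (grey), time 24 (orange) and the late arrays (purple). Filled points passed an adjusted p of 0.05: PDGFA and MCAM at time 24 and late, PDGFRB at time 24 and PDGFRA late.

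At time 12 clone c8 was above clone c6 for PDGFA (59.6 and 36.2), PDGFB (34.1 and 13.0), PDGFRB (180.3 and 16.6) and MCAM (180.2 and 49.0), and below it for PDGFC (124.5 and 182), PDGFRA (472 and 561) and CSPG4 (0.8 and 1.3). NOTCH3 was at 780.3 in clone c8 and 205 in clone c6 on the same arrays, and its part in the gap was not tested. The difference of the late minus early response, c8 minus c6, was -1.34 ± 0.58 for PDGFRB (unadjusted p = 0.037, limma adjusted p = 0.55) and -0.61 ± 0.49 for MCAM (limma adjusted p = 0.711). The response differed by limma in 0 of the 6 genes and in 0% of all genes, with 1 of the 6 and 1193 of all 13675 at an unadjusted p under 0.05. Without the time 12 array of clone c8 the PDGFRB difference was -0.63.

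By the likeness of log2 values over the 17 arrays, the genes closest to PDGFA were SEMA5B (r = 0.97), which encodes a semaphorin, DLC1 (0.97) and RAB7B (0.96), a small GTPase. Closest to MCAM were S1PR3 (0.99), a sphingosine-1-phosphate receptor, PRKG1 (0.99), the cGMP-dependent kinase of smooth muscle, and COL3A1 (0.99), a fibrillar collagen. Their late changes were 3.70 ± 0.30, 2.32 ± 0.26 and 7.56 ± 0.44. Closest to PDGFRA were FUT8 (0.90), a fucosyltransferase, PLPP3 (0.87), a lipid phosphatase, and AKNAD1 (0.86). Within the 7 genes the highest r was that of MCAM with PDGFA, 0.95. All points share the same 17 arrays and the time course, so these are descriptions.

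Of 34 tested genes of intracellular PDGF signalling (adaptors, kinases, phosphatases), 3 rose late against start, 0 fell and 31 did not pass. This is near the 5.21% of all genes that rose. The 3 were VAV3, a guanine nucleotide exchange factor (0.89 ± 0.15), JAK1, a cytokine receptor kinase (0.66 ± 0.12), and GAB1, an adaptor of receptor kinases (0.71 ± 0.14). The median of the list was 0.03, against 0.02 over all genes, and turned to -0.04 with median centring. Of 14 further ligands and receptors of the PDGF and VEGF family, 0 passed late against start with limma and 2 did at an unadjusted p under 0.05. Unadjusted, 2509 of all 13675 genes did. Late against early 1 of the 14 rose, VEGFA (0.75, limma adjusted p = 0.00294), where 3.77% of all genes rose. Among the 14, PDGFD, the other ligand of PDGFRB, lay between 16.8 and 57.8. Its change was 0.48 ± 0.17 late (limma adjusted p = 0.129) and 0.76 ± 0.21 at time 24 (limma adjusted p = 0.0396).

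Of 15 tested genes that process or bind PDGF ligands, 4 rose and 0 fell late against start, with a median of 0.21. Over all genes 5.21% rose and 1.73% fell. With median centring 3 of the list rose, with a median of 0.14. The 4 included SPARC, a matrix protein that binds PDGF (1.20 ± 0.15), NRP1, a co-receptor (1.40 ± 0.19), and PLAT, the protease that activates PDGFC (1.84 ± 0.25). Of 24 immediate early and feedback genes, which growth factor receptors induce through ERK, 6 rose and 1 fell, with a median of 0.43. MYC rose by 3.89 ± 0.38 and SPRY2, a feedback inhibitor of receptor kinases, by 1.91 ± 0.29, while EGR1, the immediate early factor, fell by 1.55 ± 0.18. The number higher was 4 with quantile normalization and 2 with median centring, with medians of 0.40 and 0.36.

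Of 21 tested partners of CSPG4 and MCAM (laminins, collagens, galectins, integrins), 7 rose and 0 fell late against start, with a median of 0.14. Over all genes 5.21% rose and 1.73% fell. With median centring 6 of the list rose, with a median of 0.066. Examples of the 7 were COL6A1, a chain of the collagen that CSPG4 binds (1.73 ± 0.18), LGALS1, galectin-1 (2.67 ± 0.28), and LAMC1, a laminin chain (1.34 ± 0.16). Of 18 tested pericyte and mural cell markers other than these 7 genes, 10 rose, 1 fell and 7 did not pass. This list, like the others here, was chosen with earlier results of these data known, so its count is a description. The median of these markers was 0.996, where 5.21% of all genes rose and 1.73% fell. The 7 that did not pass were ANGPT1 (0.57), ABCC9 (0.21), EBF1 (0.08), ATP13A5 (0.07), COX4I2 (0.02), TBX18 (0.006) and DES (-0.27). RGS5, a regulator of G protein signalling typical of pericytes, rose by 4.78 ± 0.30, and the contractile genes ACTA2 and TAGLN by 5.88 ± 0.48 and 4.84 ± 0.47. The single one that fell was FOXD1 (-0.78 ± 0.11), and NOTCH3, the induced gene, is 1 of the 10.

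**Figure D4:**
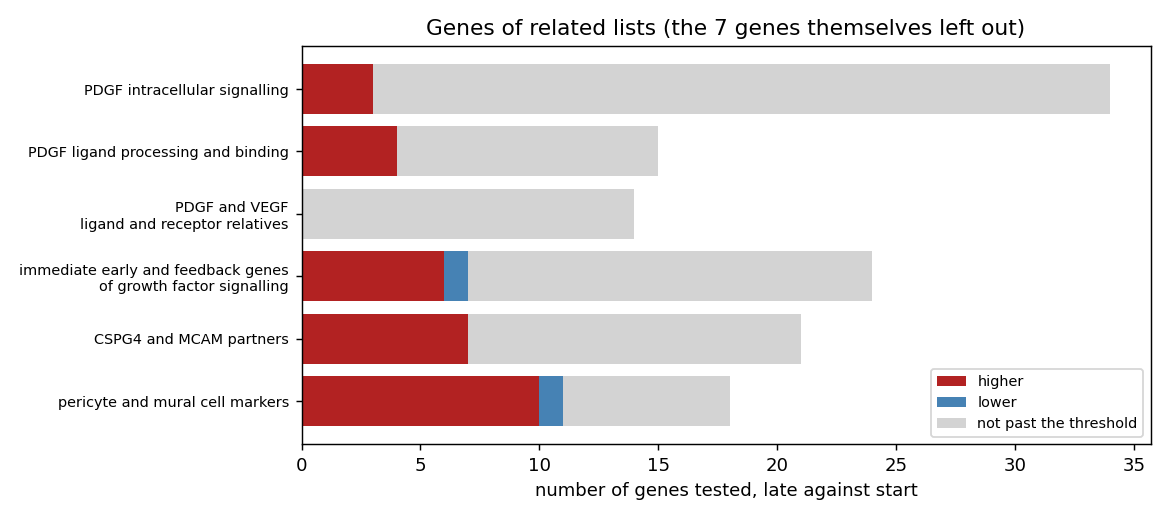
Number of genes tested (x axis) in 6 lists (rows), split into those higher (red), lower (blue) and not past an adjusted p of 0.05 (grey) late against start, with the 7 genes of the report left out. Pericyte and mural cell markers have 10 of 18 higher, and intracellular PDGF signalling 3 of 34. The lists were chosen with earlier results of these data known.

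Markers of other cells that carry these genes were measured on the same arrays, as the summed signal of each list. The 22 pericyte and mural markers summed to 3067 to 3090.2 at the start, 2493 to 3952 on the early arrays and 6849 to 16935 on the late arrays. On all arrays ANPEP was below 10, and 6 of the 22, ANPEP among them, were below 25. RGS5 alone went from 59.5 at time 0 to 2077 at time 96 in clone c8, and from 54.9 to 4594 in clone c6. A higher sum therefore does not mean that every marker of the list rose. The 12 endothelial markers, among which MCAM was not counted, summed to 81.6 to 119, 90.8 to 120.1 and 77.8 to 138 in the same order, with TEK, EMCN and ESAM below 10 on all arrays and 0 of 3 tested genes called by limma (0 at an unadjusted p under 0.05). The 11 fibroblast markers summed to 657 to 1028, 598 to 1423 and 1004 to 1916, with 2 of 5 tested genes higher, LUM (3.85 ± 0.33) and DCN (0.85 ± 0.21), and POSTN below 10. The 11 markers of oligodendrocyte precursors, cells that carry PDGFRA and CSPG4, summed to 516 to 543, 428 to 654 and 575 to 1101, with BCAN (0.63 ± 0.14) and VCAN (0.68 ± 0.19) higher of 4 tested, and NKX2-2 and GPR17 below 10. VCAN was near the threshold (limma adjusted p = 0.0465), and with median centring 1 of the 4 was higher. Over all genes 5.21% rose and 1.73% fell late against start, and so few tested markers give no firm share.

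The 9 Schwann cell and melanocyte markers summed to 221 to 294 at the start, 229 to 719.5 on the early arrays and 281 to 500.3 on the late arrays, with 0 of 4 tested genes called by limma (0 unadjusted). The 6 blood cell markers summed to 28.9 to 35.3, 19.8 to 55.2 and 15.5 to 59.4, with 0 of 1 called by limma (0 unadjusted). The 11 sympathetic neuroblast markers, which define the line, summed to 14149 to 14321, 10884 to 13919 and 10764 to 12584. Of their 11 tested genes, STMN2, a neuronal microtubule regulator, rose (1.23 ± 0.21), and DBH, the noradrenaline-making enzyme, and PHOX2A, a sympathetic transcription factor, fell (-2.19 ± 0.34 and -0.77 ± 0.13). Over all genes 5.21% rose and 1.73% fell. No list had a marker at 0 on all arrays, and the part of any of these lists in the changes of the 7 genes was not tested.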

How the data were processed

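Per the labels, total RNA of IMR32 clones was labelled with biotin and hybridised to Affymetrix arrays, and per the submitters' processing notes the deposited signal intensities were made with MAS5 and GCOS, without versions. The values themselves show each array scaled to a 2% trimmed mean of 100.01. Signals were taken as log2(signal + 16), with no further normalization; detection calls were not used here. A gene was represented by its brightest probe set annotated to it alone, kept where its mean log2 value was at or above 4.68, the 40th percentile over the array, which left 13675 of 19775 genes and 6 of the 7 described. Of the 21 probe sets, 14 reached that value. Annotation gave 41097 probe sets 1 symbol, 1801 several and 11777 none.

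Tests used limma 3.58.1 in R 4.3.3 (eBayes with an intensity trend, Benjamini-Hochberg, 0.05). They were also run on simulated data with independent noise and no clone effect. Such data do not show how the tests perform on arrays that share a clone. Time changes came from a fit over 17 arrays with terms for time and clone (7 residual degrees of freedom). Late against early used 12 arrays with the clone as a term (9), the response its interaction (8), and the level difference the 16 arrays of shared times (7). The labels pair the arrays by clone, and the differences between clones correlated at 0.13 to 0.49 between times, so the clone stayed as a block. No pair of arrays had over 1.42% of values equal. The members and lists were chosen with earlier results of these data known. The named genes were all 7, up to 3 of each list of smallest p late against start, the 3 genes most like each of those called there, and NOTCH3, HEY1, RGS5 and PDGFD. Comparisons with time 24 were added after seeing the data. The sources used here do not name the genome build behind the annotation, so probes have no coordinates. Alternatives covered the pseudocount, normalization, filter, probe set choice, eBayes trend, clone term, phase means, single clones and each array left out. The number of arrays, 1 per clone and time, limits the precision.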

Additional observations from a re-analysis of the deposited data

How the results depend on the processing

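PDGFA and MCAM rose late against start under 28 of 29 alternatives each (0.99 to 2.64 and 1.19 to 3.09) and late against early under all 23, with MCAM at its lowest as the mean of its own probe sets. The exception was clone c8 alone, with 0 members higher (adjusted p = 0.131 for PDGFA and 0.112 for MCAM). In clone c6 alone PDGFA, PDGFRB and MCAM were called higher. Either fit had fewer arrays than the main one, and the cause of the difference between them was not tested. The fall of PDGFRA gave 0 members lower with quantile normalization, no intensity filter, all probe sets, the mean of probe sets, eBayes without a trend, no replicate block, phase means and either clone alone, and 0 to 1 with single arrays left out. Without the replicate block, which pairs arrays by clone, 1 member was higher at time 24, as with phase means, and 0 in clone c8 alone. The PDGFRB call at time 24 was also lost with no filter (adjusted p = 0.0504) and all probe sets (0.0651). PDGFB late against early passed under 6 of 22 alternatives, and was also lost at a pseudocount of 1 (0.0969), with no filter (0.0875), eBayes without a trend (0.0615), all probe sets (0.13), no replicate block (0.0587) and clone c6 (0.122) or c8 (0.415) alone. The mean of probe sets left 1 member called in level. With single arrays left out, 2 to 5 members changed over time (5 without the time 12 array of clone c6) and 0 to 1 were lower late against early (PDGFC, without the time 12 array of clone c8). The cause was not tested. Reversals touched values that had passed no threshold. Early, PDGFB was -0.23 at a pseudocount of 1, -0.059 with quantile normalization, -0.050 with median centring and -0.026 in clone c8 alone. Early PDGFRB was -0.18 in clone c6 alone and early PDGFC -0.14 in clone c8 alone. At time 24 PDGFB was -0.19 in clone c6 alone. From time 24 to late, PDGFRA was 0.057 and MCAM -0.035 in clone c8 alone. Late against early, PDGFRA was 0.013 in clone c6 alone. The response difference was -0.0026 for PDGFB at a pseudocount of 64 and 0.13 for PDGFRA as the mean of probe sets. Leaving out single arrays gave ranges across 0 for early PDGFB (-0.13 to 0.15), PDGFC (-0.11 to 0.25) and PDGFRB (-0.042 to 0.71), time 24 PDGFB (-0.21 to 0.64), PDGFRA from time 24 to late (-0.44 to 0.12), and the response difference of PDGFA (-0.030 to 0.69), PDGFB (-0.33 to 0.45) and MCAM (-0.92 to 0.010).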
